A study of Mus musculus with 4 samples.

Results

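The comparison set cells sorted as Prom1-CD49f+CD45- (gate R5) against the library labelled Prom1+CD49f+CD45+ (gate R8), both from livers of C57BL/6 mice with alcoholic hepatitis. Its members were the genes with at least 10 counts in either library, 19927 of the 41128 in the table. A length was known for 19679 of them, and 16018 were protein-coding. R5 and R8 were among 4 RNA-seq libraries, with Prom1+CD49f+CD45- cells (gate R6) and presorted CD45- cells as the others. Each was 1 library made from RNA pooled from 2 mice, so no spread between animals can be given and every interval below covers counting error only.

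All 4 libraries came from diseased livers, and none from a healthy one. The mice took 40% of their calories freely from a high cholesterol fat diet and 60% as liquid diet with alcohol through a gastric tube, with a weekly binge added. After collagenase digestion, slow centrifugation took out hepatocytes and magnetic beads took out CD45+ cells. What remained, the presorted CD45- cells, was stained for Prom1, a membrane protein of ducts and progenitor cells, and for CD49f, the integrin alpha 6 chain encoded by Itga6. R8 therefore carries a CD45+ label although it was sorted from cells depleted of CD45+ cells.

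The RNA of the sorted proteins followed the R8 label only in part. Levels are depth-scaled counts (CPM, with TMM, a normalization that takes most genes as equal between libraries) and are listed as R5, R8, R6 and presorted unless stated. Prom1 was at 30.7, 11.3, 355 and 69.2 CPM, so the library labelled Prom1+CD49f+CD45+ had the lowest Prom1 of the 4, below the library sorted as Prom1-. Ptprc, which encodes CD45, was at 3.55, 14.3, 6.33 and 21.6 CPM. Its level in R8 was above R5 and R6 but below the presorted cells that R8 was sorted from. Itga6 was at 49.8, 125, 72.8 and 114 CPM, highest in R8, and lower in R5 and R6 than in the presorted cells. R8 is therefore named as labelled, and the differences below are between these 2 libraries.

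The liver sinusoid is lined by a perforated endothelium without a regular basement membrane. Its cells clear waste from portal blood through scavenger and lectin receptors, and they release Bmp2 and Wnt2 to neighbouring cells. Arteries, portal veins, central veins and lymphatics are lined by continuous endothelium, which stores von Willebrand factor and carries other junction proteins and signals, such as the Wnt amplifier Rspo3 around the central vein. Of the markers, Stab2 and Clec4g belong to the sinusoid and Vwf and Sox17 to continuous endothelium, while Emcn is a gene of veins and capillaries.

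The positions of the 5 markers are those of GENCODE vM21 on GRCm38. Vwf lies at chr6:125546774-125686679 on the plus strand, Sox17 at chr1:4490931-4497354 on the minus strand, and Emcn at chr3:137341067-137432185 on the plus strand. Stab2 lies at chr10:86841198-87008025 and Clec4g at chr8:3707064-3720651, both on the minus strand. RefSeq upstream sequences were held for 3 of the 5 markers. They are shown with those of Kdr, Gja5 and Mmrn1, chosen after their values were seen. Kdr, listed as a gene shared by all endothelia, was higher in R8. The vessel gene Gja5 and the lymphatic gene Mmrn1 were higher in R5. Each stretch runs 5′ to 3′ on the gene's strand, from 250 bases before the RefSeq start up to that start, or up to the nearest GENCODE exon where that came earlier. Capitals mark matches on either strand to GGAA (core letters bound by ETS factors), AGATAA (bound by GATA factors), ATTGT (bound by SOX factors) and CACCC (bound by Kruppel-like factors). No matches overlapped.
Stab2 (chr10:87008026-87008192, minus strand, GRCm38.p6): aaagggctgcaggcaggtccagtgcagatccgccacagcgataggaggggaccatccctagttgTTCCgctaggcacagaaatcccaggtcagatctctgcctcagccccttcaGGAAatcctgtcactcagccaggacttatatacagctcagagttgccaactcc
Clec4g (chr8:3720652-3720901, minus strand, GRCm38.p6): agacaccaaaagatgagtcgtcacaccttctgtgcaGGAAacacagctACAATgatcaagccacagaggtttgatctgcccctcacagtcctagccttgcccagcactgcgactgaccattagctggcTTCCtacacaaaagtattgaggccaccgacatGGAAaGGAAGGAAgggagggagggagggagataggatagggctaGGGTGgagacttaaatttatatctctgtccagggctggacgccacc
Kdr (chr5:75978459-75978705, minus strand, GRCm38.p6): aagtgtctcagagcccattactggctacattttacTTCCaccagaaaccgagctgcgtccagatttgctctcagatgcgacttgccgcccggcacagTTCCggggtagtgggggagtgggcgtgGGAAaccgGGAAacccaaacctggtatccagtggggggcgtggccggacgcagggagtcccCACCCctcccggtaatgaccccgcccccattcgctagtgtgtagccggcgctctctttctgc
Emcn (chr3:137340828-137341066, plus strand, GRCm38.p6): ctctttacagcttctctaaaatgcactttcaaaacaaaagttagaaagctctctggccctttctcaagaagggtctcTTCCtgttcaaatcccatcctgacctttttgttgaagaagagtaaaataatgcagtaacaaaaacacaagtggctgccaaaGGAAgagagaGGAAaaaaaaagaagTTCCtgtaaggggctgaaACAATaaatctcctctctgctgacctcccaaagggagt
Gja5 (chr3:97032152-97032401, plus strand, GRCm38.p6): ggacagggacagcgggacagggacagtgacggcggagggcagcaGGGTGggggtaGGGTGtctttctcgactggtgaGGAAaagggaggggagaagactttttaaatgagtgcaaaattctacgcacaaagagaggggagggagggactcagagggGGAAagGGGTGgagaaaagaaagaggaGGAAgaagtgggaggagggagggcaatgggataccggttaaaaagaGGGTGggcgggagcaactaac
Mmrn1 (chr6:60944067-60944316, plus strand, GRCm38.p6): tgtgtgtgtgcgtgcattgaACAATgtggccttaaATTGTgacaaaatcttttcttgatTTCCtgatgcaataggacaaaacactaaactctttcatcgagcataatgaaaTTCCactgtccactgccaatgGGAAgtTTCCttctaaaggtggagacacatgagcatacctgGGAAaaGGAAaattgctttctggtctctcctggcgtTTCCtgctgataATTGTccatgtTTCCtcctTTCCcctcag
Matches were counted over all 250 bases, including the ends not printed for Stab2, Kdr and Emcn. GGAA occurred 6 times in the 250 bases before Stab2, 5 times before Clec4g, 4 times before Kdr, 4 times before Emcn, 3 times before Gja5 and 9 times before Mmrn1. The same letters were present in 93.4% of the 32851 RefSeq promoters of that length, so these counts set no group apart. AGATAA was found before none of the 6 genes and in 9.99% of all promoters. CACCC occurred 4 times before Gja5, 1 time each before Clec4g and Kdr and not before the others, against 52% of all promoters with a match. ATTGT occurred 3 times before Mmrn1 and 1 time each before Clec4g and Emcn, against 27.7% of all promoters. These are matches of letters in a window and show no binding.

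The ratio of R5 to R8 fell steadily with transcript length. Among 10754 protein-coding genes with at least 50 counts in both libraries, the median log2 ratio was 1.14 in the shortest eighth (median exonic length 1.53 kb) and -0.75 in the longest (median 11.9 kb). Spearman's rho between length and log2 ratio was -0.51 across these genes, which are not independent replicates. The trend was removed with a smooth curve fitted to length, after which rho was -0.0041 and the eighths' medians ran from -0.28 to -0.18. Against the presorted library, rho was -0.32 for R5 and 0.32 for R8, so the trends of both libraries entered the ratio. Against R6, rho was -0.37 for R5 and 0.12 for R8, so the part of each depends on the reference. All folds below are length-adjusted unless stated, and "unadjusted" means before this step.

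**Figure D1:**
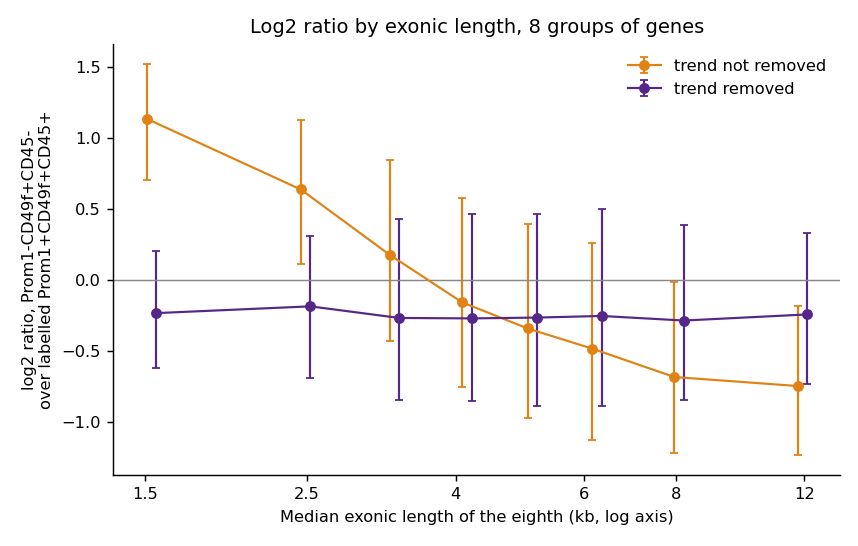
Median log2 ratio of R5 to R8 in 8 groups of protein-coding genes ordered by exonic length (kb, log axis). Bars span the quartiles of the genes; the orange medians go from 1.14 to -0.75, and the purple medians stay between -0.28 and -0.18 once the trend is removed.

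Calls needed the full 95% interval of the ratio (exact binomial on the 2 counts) to be beyond 2-fold. In R5, 1712 of 16018 protein-coding genes were called higher (10.7%) and 3014 lower (18.8%). Counts of calls on the gene lists below are to be read beside these shares. The median log2 ratio of all 16018 was -0.38. Without removing the trend the counts were 2617 higher (16.3%) and 2698 lower (16.8%), so the share of calls that were higher moved from 36.2% to 49.2%. Removing the trend ended 1086 higher and 668 lower calls and added 181 and 984, and it turned no call to the other direction. Over all 19679 genes with a length the counts were 1750 higher (8.89%) and 5349 lower (27.2%), against 2765 (14.1%) and 3753 (19.1%) with the trend left in. Genes outside the protein-coding class gave 38 higher and 2335 lower calls of 3661, and are not described further because the curve was fitted on coding genes.

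Many of the lower calls concerned genes near background in R8 or with far more RNA in R8 than in the presorted cells. Chemosensory receptor genes, which the liver is not known to use, gave a measure of background. Of 1506 such genes, 27.6% had at least 1 count in R5, 69.6% in R8, 69.5% in R6 and 12.6% in the presorted library. A larger share of these genes thus had counts in R8 and R6, the libraries labelled Prom1+, although the presorted library was the deepest. Above the 95th percentile of this class (0.142 CPM per kb in R5 and 0.467 in R8) stood 1701 of the 1712 higher and 2402 of the 3014 lower genes. In 1174 of the lower genes (39.0%), R8 was more than 4 times the presorted level, and in 1052 of those R6 was too. Zfp488, Hsd3b2 and Mcmdc2, chosen after their values were seen, are examples. Zfp488 was at 62.2, 573, 383 and 9.0 CPM, Hsd3b2 at 39.2, 332, 242 and 12.5 CPM, and Mcmdc2 at 4.18, 57.9, 41.6 and 1.37 CPM. Lower calls above background whose R8 level was at most 4 times the presorted level numbered 1734.

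Genes of the sinusoidal lining were lower in R5 than in R8. None of the 24 tested genes of the sinusoidal list was called higher and 19 were called lower, with a median log2 ratio of -1.69. Every one of the 24 had a ratio below 1. Summed over the list, the level was 9017 CPM in R5, 31493 in R8, 498 in R6 and 24966 in the presorted cells. In bulk RNA, fewer cells of a type and less RNA per cell cannot be told apart.

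Stab2, the scavenger receptor stabilin-2 that takes up hyaluronan, was at 353, 3567, 17.1 and 2899 CPM. Its level in R5 was 7.51-fold lower than in R8 (95% interval 7.30 to 7.72). Stab1, its relative, was at 368, 1660, 9.80 and 1374 CPM and 3.27-fold lower (3.18 to 3.37). Mrc1, the mannose receptor, was at 312, 1756, 10.9 and 1328 CPM and 4.72-fold lower (4.58 to 4.87). All 3 receptors were thus high in R8 and the presorted cells and intermediate in R5. Fcgr2b, which binds immune complexes, was 3.13-fold lower (3.05 to 3.21), and Lyve1, a hyaluronan receptor, was 3.17-fold lower (3.08 to 3.26).

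The C-type lectin Clec4g gave a smaller difference. It was at 1906, 3209, 21.5 and 2541 CPM, a fold of 2.99 lower in R5 (2.95 to 3.03). Unadjusted, its log2 ratio was -0.75 and it was not called: its short exonic length of 2.46 kb put it where the trend favoured R5. Clec4g thus rests on the adjustment, whereas Stab2 was called with and without it.

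The lowest ratios of the sinusoidal list were those of Kit, Bmp2, Oit3 and Flt4. Bmp2, the ligand that drives hepcidin expression in hepatocytes, was at 290, 2161, 14.3 and 1550 CPM and 9.20-fold lower in R5 (8.92 to 9.50). Kit, a receptor of stem cell factor found on part of the sinusoid, was at 40.6, 612, 4.05 and 444 CPM and 11.2-fold lower (10.3 to 12.2). Both had their lowest level in R6. Oit3 was 7.98-fold lower (7.72 to 8.25), Flt4, the receptor for VEGF-C, 7.82-fold lower (7.48 to 8.19) and Plxnc1, a semaphorin receptor, 5.78-fold lower (5.55 to 6.02). Gata4, the transcription factor that sets sinusoidal identity, was at 150, 518, 2.8 and 436 CPM and 3.92-fold lower (3.75 to 4.11).

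Of the other sinusoidal genes, Gpr182, Dnase1l3, Il1a, Adam23, Ehd3, Aass and Cd209b were called lower, between 2.43-fold (Gpr182) and 5.90-fold (Cd209b). Ehd3, an endocytic recycling protein and one of the 10 genes with most counts in R8, was at 742, 4221, 29.2 and 3565 CPM. The 5 genes not called were Tfec, Ctsl, Wnt2, Maf and Ushbp1. Wnt2, a Wnt ligand of the pericentral sinusoid, was at 231, 165, 1.63 and 113 CPM, so its level in R5 exceeded that in R8, while its length-adjusted log2 ratio was -0.45. The direction for Wnt2 thus depends on the adjustment.

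Most genes shared by all endothelia leaned lower in R5, with 22 ratios below 1 and 4 above. On the pan-endothelial list of 26, 1 gene was called higher in R5, 11 lower and 14 neither (7 lower when GC content was removed with length). The median log2 ratio was -0.84, against -0.38 for all coding genes. Sox17, a transcription factor of arterial endothelium and the higher gene of that list, was at 373, 124, 4.14 and 106 CPM and 3.08-fold higher in R5 (2.95 to 3.22). Emcn, the sialomucin endomucin of veins and capillaries, was at 251, 136, 2.83 and 96.1 CPM. Its ratio of 2.01 had an interval of 1.92 to 2.11 that reached below 2-fold, so it was not called. Both genes had their highest level in R5.

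The junction gene Cdh5 was at 172, 227, 1.78 and 168 CPM, a log2 ratio of -0.49 that was not called. Pecam1 was at 357, 746, 18.3 and 567 CPM (log2 ratio -0.83) and Egfl7 at 1256, 1177, 35.7 and 714 CPM (log2 ratio -0.20), and neither was called. All 3 had their lowest level in R6. Kdr, the main VEGF receptor, was the lowest of the list at 311, 3124, 14.6 and 2299 CPM, 7.43-fold lower in R5 (7.21 to 7.66). Eng, a TGF-beta co-receptor, was 6.73-fold lower (6.45 to 7.03), and Robo4 3.56-fold lower (3.40 to 3.73). Ets1, Erg, Cldn5, Sox18, Tek, Calcrl, Tie1 and Nos3 were lower by 2.19-fold (Nos3) to 2.96-fold (Ets1).

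**Figure D2:**
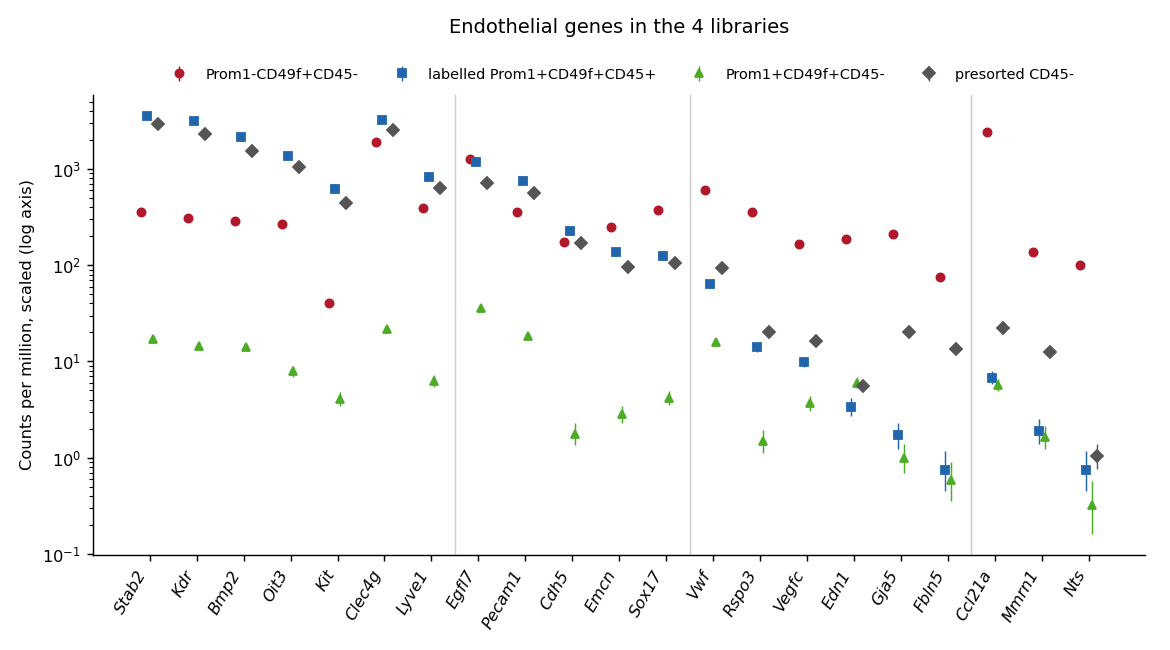
Levels of 21 endothelial genes in the 4 libraries (scaled CPM, log axis; bars are 95% Poisson counting intervals). Genes run from those of the sinusoid and of all endothelia on the left to vessel and lymphatic genes on the right; from Stab2 to Lyve1 R5 lies below R8 and the presorted cells, and from Emcn to Nts it lies above both.

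Genes of large vessels were higher in R5. On the large-vessel list of 26 genes, 17 were called higher, 2 lower and 7 neither, with a median log2 ratio of 1.73. Vwf, the platelet-binding protein stored by continuous endothelium, was at 609, 64.0, 15.8 and 93.1 CPM and 13.9-fold higher (13.2 to 14.7). Gja5, the connexin 40 of arteries, was at 210, 1.70, 0.991 and 20.4 CPM and 138-fold higher (102 to 191). Fbln5, an elastic fibre protein, was at 76.1, 0.753, 0.583 and 13.3 CPM and 126-fold higher (80.2 to 210). R5 had the highest level of the 4 libraries for these genes, and for Vwf, Gja5 and Fbln5 alike R8 lay below even the presorted cells.

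Edn1, the vasoconstrictor endothelin-1, was at 187, 3.37, 6.04 and 5.62 CPM and 27.9-fold higher (22.5 to 35.0). Bmx, an arterial kinase, was 26.2-fold higher (16.2 to 45.5), Vegfc, the lymphangiogenic ligand, 9.34-fold (8.20 to 10.7), and Hey1, a Notch target of arteries, 4.60-fold (3.60 to 5.93). Fbln2, another matrix protein, was 69.0-fold higher (59.8 to 79.9). Some members are also made outside vessels: Clu, at 11191, 516, 29884 and 6839 CPM, was most abundant in R6. Eln, also on the portal fibroblast and mesothelial list, rested on 96 counts in R5 and 1 in R8. Its difference was 224-fold, with an interval of 39.3 to 8943. Selp, Ly6a, Ly6c1, Sema3g, Cxcl12 and Bgn were also called higher, from 2.31-fold (Bgn) to 10.5-fold (Ly6c1).

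Not every arterial gene took that direction. Dll4, the Notch ligand of arterial tips, was at 121, 259, 2.30 and 218 CPM and 2.46-fold lower in R5 (2.34 to 2.60). Ltbp4 was 2.21-fold lower (2.14 to 2.27). Efnb2, an arterial ephrin, had a log2 ratio of -0.75, Gja4, connexin 37, one of -0.28, and Jag1 one of 0.87, and none of these was called. Among the 17 tested genes of the Notch pathway list, Notch2 and Hey1 were called higher and Dll4, Notch4 and Lfng lower. Both shares were near those of all coding genes (10.7% higher and 18.8% lower). Notch4, the endothelial receptor, was 2.96-fold lower (2.68 to 3.27), and Lfng, which glycosylates Notch receptors, 8.26-fold lower (5.96 to 11.7).

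Of 12 central vein genes, 4 were called higher in R5 and none lower. Rspo3, the R-spondin that amplifies Wnt signals around the central vein, was at 358, 14.0, 1.49 and 20.2 CPM and 18-fold higher (16.1 to 20.1). Cdh13 was 5.83-fold higher (5.47 to 6.20) and Fabp4, a fatty acid carrier of endothelium and fat, 3.56-fold higher (3.45 to 3.66). Selp was the other gene. Wnt9b, a central vein ligand, was at 65.2, 31.4, 0.641 and 32.3 CPM, a ratio of 2.06 whose interval of 1.87 to 2.27 included 2-fold. Thbd, thrombomodulin, and Gata2 had log2 ratios of -0.81 and -0.99 and were not called.

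Most lymphatic genes were higher in R5. Of 15 tested, 10 were called higher in R5 and 4 lower. Ccl21a, the chemokine that draws dendritic cells into lymphatics, was at 2440, 6.78, 5.66 and 22.1 CPM and 114-fold higher (97.9 to 133). Its near-identical copies may share reads with it. Mmrn1, multimerin, was at 137, 1.90, 1.63 and 12.6 CPM and 82.0-fold higher (61.6 to 112), and Nts, neurotensin, at 101, 0.753, 0.321 and 1.04 CPM and 49.9-fold higher (31.8 to 83.1). These 3 had their highest level in R5 by a wide margin.

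Fxyd6, an ion pump regulator, was 155-fold higher (93.9 to 278), Foxc2, a lymphatic valve factor, 3.47-fold (2.15 to 5.81) and Pdpn, podoplanin, 4.08-fold (2.48 to 7.06). Prox1, the lymphatic master regulator, was at 35.2, 7.57, 344 and 63.9 CPM and 6.21-fold higher (5.25 to 7.38). Its highest level was in R6, the library with the highest summed level of duct genes. Reln, Tbx1 and Thy1 were also higher. Reln also stands on the stellate and contractile list, and Thy1 on the portal fibroblast and mesothelial list. The 4 lower genes were Gja1, Lyve1, Itga9 and Flt4, of which Lyve1 and Flt4 also stand on the sinusoidal list.

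**Figure D3:**
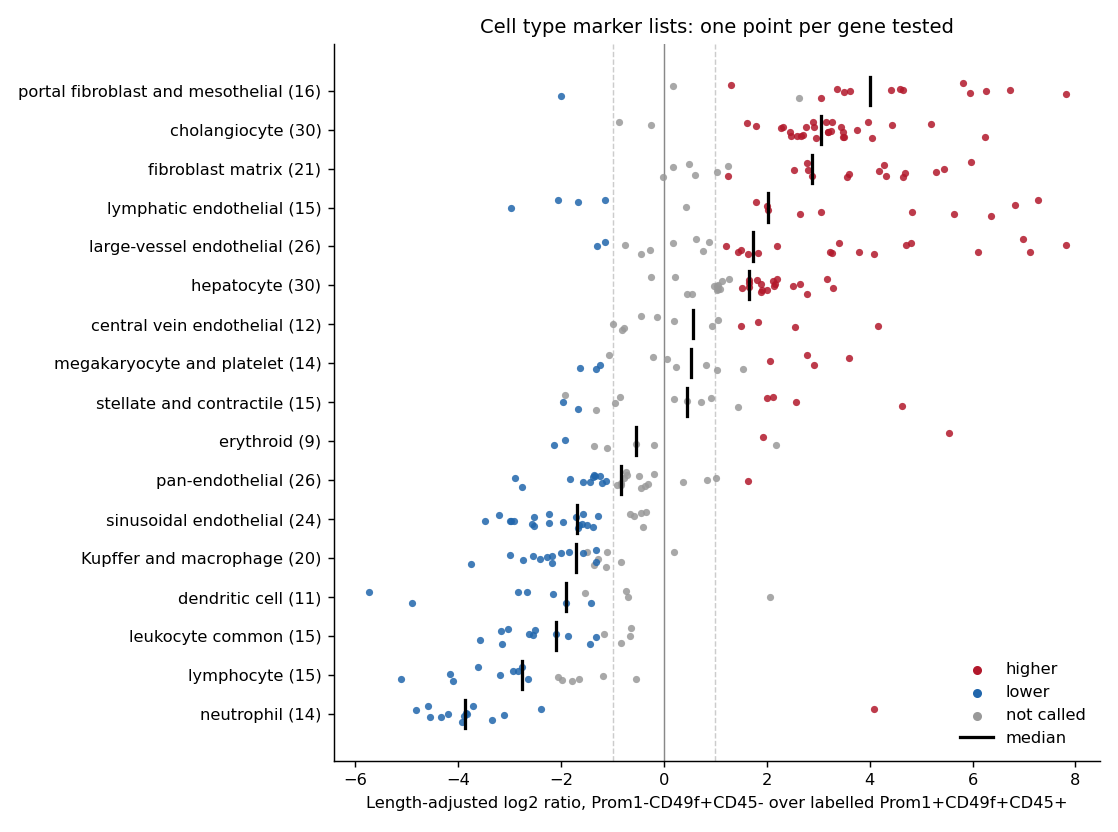
Length-adjusted log2 ratio of R5 to R8 for each tested gene of 17 cell type lists, with the number tested in brackets. Red and blue points are genes called higher and lower in R5, black bars are medians and dashed lines mark 2-fold; sinusoidal and leukocyte lists lie to the left, and large-vessel, lymphatic, duct, mesothelial and fibroblast lists to the right.

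Genes of several non-endothelial cell types were higher in R5. On the cholangiocyte list, 28 of 30 genes were called higher and none lower, with a median log2 ratio of 3.05. Summed over the list, the level was 12436 CPM in R5, 827 in R8, 37791 in R6 and 7724 in the presorted cells. Krt19, a keratin of ducts, was at 206, 5.67, 301 and 76.4 CPM and 16.5-fold higher (14.0 to 19.7). Epcam was at 270, 10.3, 670 and 111 CPM and 13.4-fold higher (11.9 to 15.3). Spp1, osteopontin, was at 8079, 304, 19670 and 3199 CPM and 11.3-fold higher (11 to 11.6). These duct genes in R5 stood between R6 and the presorted cells. Slc4a2 and Pkd2, with log2 ratios of -0.26 and -0.88, were the 2 not called. The part of duct cell RNA in the endothelial differences was not tested.

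Mesothelial and fibroblast genes were also higher in R5. On the portal fibroblast and mesothelial list, 13 of 16 tested genes were higher and 1 was lower, with a median log2 ratio of 4.01. Msln, mesothelin, was at 113, 1.03, 1.55 and 34.8 CPM and 76.6-fold higher (52.1 to 118). Upk3b, a mesothelial uroplakin, was at 110, 0.832, 1.17 and 25.6 CPM and 106-fold higher (69.2 to 172). Wt1, the mesothelial transcription factor, had 35 counts in R5 and 0 in R8, at least 24.1-fold higher against a floor of 3 counts. These mesothelial genes were near 0 in R6 as well as R8. Dpp4, the lower gene, was at 244, 1161, 98.3 and 983 CPM, and 2 of the higher genes, Krt8 and Krt18, were most abundant in R6 together with duct genes. Summed over the list, the level was 3232 CPM in R5, 1638 in R8, 5191 in R6 and 2547 in the presorted cells, and its part in the vessel gene differences was not tested.

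Of 21 fibroblast matrix genes, 15 were higher and none lower (median log2 ratio 2.88). Dcn, decorin, was at 523, 22.9, 6.33 and 303 CPM and 25.8-fold higher (23.7 to 28.2). Col1a1, fibrillar collagen, was at 8.64, 1.51, 0.700 and 53.4 CPM and 6.95-fold higher (4.79 to 10.3), so its highest level was in the presorted cells. Lox and Loxl1, which cross-link collagen and elastin, were 43.5-fold (21.7 to 102) and 62.5-fold (21.0 to 307) higher. Sparc and Fbn1 had log2 ratios of -0.03 and 0.48 and were not called. On the stellate and contractile list, 4 of 15 tested genes were higher and 2, Lrat and Vipr1, lower.

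Most hepatocyte genes were higher in R5 than in R8. Of 30, 18 were called higher and none lower (26 higher without the adjustment), and the summed level was 11910 CPM in R5, 1410 in R8, 14638 in R6 and 67016 in the presorted cells. Alb, albumin, was at 1249, 151, 3239 and 5431 CPM and 4.47-fold higher (4.32 to 4.63). Hp, haptoglobin, was at 694, 78.1, 75.7 and 4596 CPM and 3.72-fold higher (3.54 to 3.90). Both were most abundant in the presorted cells, and Hp was lowest in R8 and R6. The acute phase list, most of it made by hepatocytes, had 19 of 20 genes higher and none lower. Its leading gene Saa3, a serum amyloid made outside hepatocytes, was at 134, 0.832, 0.816 and 44.9 CPM and 95.7-fold higher (62.4 to 155). Lcn2, lipocalin-2, was at 787, 27.8, 785 and 1008 CPM and 16.9-fold higher (15.7 to 18.3). Saa1 and Saa2 are near-identical, so their split between the copies is uncertain.

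Leukocyte genes were lower in R5, and granule genes of immature neutrophils led. Of 14 tested neutrophil genes, 13 were called lower in R5, 11 of them above background, and Lcn2 was called higher. Mpo, myeloperoxidase, was at 48.1, 543, 7.43 and 1011 CPM and 14.5-fold lower in R5 (13.4 to 15.6). Elane, neutrophil elastase, was at 22.2, 178, 2.59 and 328 CPM and 24.2-fold lower (21.6 to 27.1). Ctsg, cathepsin G, was at 0.906, 19.8, 0.321 and 34.5 CPM and 64.6-fold lower (37.4 to 122). Each of the 3 was highest in the presorted CD45- cells and next in R8. S100a8 was at 4.95, 26.7, 0.0875 and 82.8 CPM and 18.5-fold lower (14.4 to 23.9), and Ngp at 6.83, 38.0, 0.321 and 106 CPM and 15.2-fold lower (12.3 to 18.9). Cxcr2, at 6.20, 43.5, 29.2 and 2.27 CPM, was instead highest in R8 and R6.

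Genes common to leukocytes took the same direction at low levels. Of 15, 11 were lower in R5 and none higher, with Ptprc 2.73-fold lower (2.03 to 3.73) and Coro1a 8.86-fold lower (6.53 to 12.3). Of 20 Kupffer cell and macrophage genes, 13 were lower (7 unadjusted) and none higher. Cd5l, made by Kupffer cells, was at 10.9, 21.1, 1.75 and 173 CPM and Lyz2, lysozyme, at 29.0, 58.6, 3.06 and 278 CPM. Both were called lower in R5 after adjustment only, and both had their highest level in the presorted cells. Csf1r, the macrophage growth factor receptor, was at 16.7, 16.4, 79.0 and 103 CPM and was not called. Of 15 tested lymphocyte genes 9 were lower, and of 11 dendritic cell genes 7. T cell receptor genes were at or near 0: Cd3e had 0 counts in R5, where 3 counts equal 0.209 CPM, and 0.436 CPM in R8, and Trac had 0 counts and 0.0793 CPM. Summed over the leukocyte common list, the level was 474 CPM in R5, 525 in R8, 48.1 in R6 and 806 in the presorted cells, of which Arhgdib, also an endothelial gene, made 318 in R5 and 214 in R8.

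**Figure D4:**
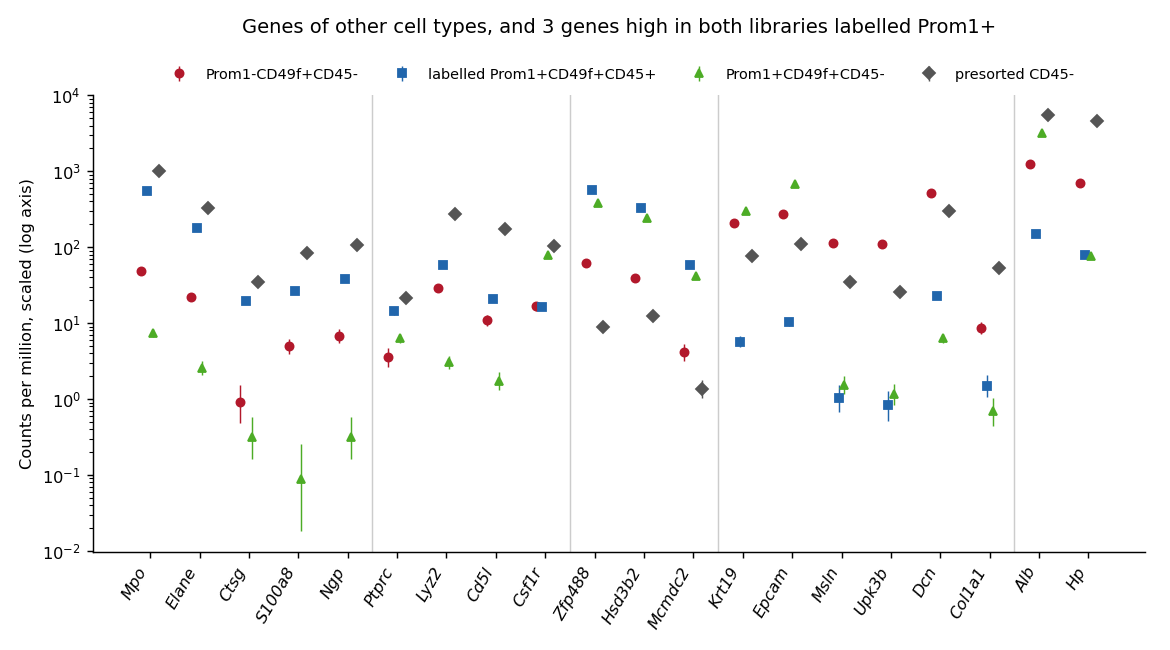
Levels of 20 genes in the 4 libraries (scaled CPM, log axis; bars are 95% Poisson counting intervals). Genes run from neutrophil and other leukocyte genes through 3 genes high in R8 and R6 to genes of ducts, mesothelium, fibroblasts and hepatocytes; from Mpo to Ngp and for the 3 genes high in R8 and R6, R8 lies above R5, and from Krt19 to Hp R5 lies above R8.

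The 15 genes whose interval lay farthest above 2-fold were Ahnak2, Gja5, Ccl21a, Fxyd6, Has1, Fbln5, Upk3b, Prss23, Saa3, Mmrn1, Fbln2, Bst1, Msln, Rsad1 and Stmn2. Has1, a hyaluronan synthase, was at 12.1, 0, 0.0875 and 0.743 CPM, at least 101-fold higher in R5 against a floor of 3 counts. Bst1 was at 10.7, 0, 1.55 and 1.86 CPM, at least 67.8-fold higher against the same floor. Ahnak2 led with 298 counts in R5 and 2 in R8, a fold of 377 with an interval of 103 to 3128. Prss23, a secreted protease, was at 166, 1.51, 36.3 and 28.2 CPM and 94.2-fold higher (68.4 to 133). Has1, Bst1 and Ahnak2 rested on almost no counts in R8.

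The 15 genes farthest below were Ctsg, Smok2b, Elane, Zscan4f, Pnpla3, S100a9, S100a8, Ms4a6c, Mpo, Nkg7, Ccl3, Ngp, Smco1, Zfp987 and Chil3. They formed 2 patterns across the libraries. Ctsg, Elane, S100a8, S100a9, Mpo, Nkg7, Ngp and Chil3 were highest in the presorted cells. Smok2b, at 0.0697, 5.90, 2.80 and 0.0232 CPM, Zscan4f, at 0.209, 5.31, 3.0 and 0.0696 CPM, and Zfp987, at 0.209, 5.15, 2.07 and 0 CPM, were highest in the libraries labelled Prom1+. Pnpla3, at 0.348, 5.19, 2.97 and 0.951 CPM, and Smco1, at 0.767, 6.66, 3.29 and 0.534 CPM, had the same order. These 5 genes had 130 to 168 counts in R8. Ms4a6c, at 2.65, 24.8, 14.5 and 11.3 CPM, and Ccl3, at 0.906, 5.98, 0.0875 and 4.01 CPM, fell in neither pattern.

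Scavenger and lectin receptors, the uptake machinery of the sinusoid, had 14 of 23 tested genes lower in R5 and 3 higher (median log2 ratio -1.57). Beside the sinusoidal genes given above, Cd36, a fatty acid translocase, was at 1127, 2739, 171 and 2299 CPM and 2.98-fold lower (2.93 to 3.03). Scarf1 was 2.84-fold lower (2.67 to 3.02), and Msr1 at 510, 1089, 8.28 and 1016 CPM was not called (log2 ratio -0.85). Lrp1, Cd14 and Asgr1, which other liver cells express, were the higher genes. Asgr1, the hepatocyte asialoglycoprotein receptor, was at 35.8, 5.55, 5.22 and 246 CPM.

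Of 28 endocytosis and lysosome genes, 8 were lower and 3 higher. The share of higher calls was near the 10.7% of all coding genes, and that of lower calls was above their 18.8%. Cltc, the clathrin heavy chain, was at 190, 844, 334 and 775 CPM and 3.32-fold lower in R5 (3.19 to 3.46). Dab2, an adaptor for receptor uptake, was 2.90-fold lower (2.81 to 2.99) and Rab5c, of early endosomes, 5.12-fold lower (4.55 to 5.77). Against them, Cav1, the coat protein of caveolae, was at 208, 30.0, 139 and 50.4 CPM and 5.45-fold higher (5.03 to 5.91), and Ehd2, which sits at caveolar necks, 29.7-fold higher (21.7 to 41.6). Cltb, a clathrin light chain, was also higher in R5 (3.02-fold, 2.82 to 3.24), so clathrin genes did not share 1 direction. Cavin1 and Cavin2 had log2 ratios of 0.23 and -0.02 and were not called.

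Of 20 genes on the VEGF and angiopoietin list, 10 were lower in R5 and 3 higher. The split depended on the scaling: with TMM factors from R5 and R8 alone 6 were lower and 6 higher, and with DESeq2 size factors 6 were lower and 4 higher. The lower ones included the receptors Kdr, Flt4, Tek, Tie1, Nrp1 and Nrp2, with Nrp1 at 501, 1751, 51.7 and 1318 CPM and 2.56-fold lower (2.5 to 2.63). Esm1, a tip cell proteoglycan, was at 27.2, 131, 1.31 and 114 CPM and 9.76-fold lower (8.78 to 10.9). The higher ones were the ligands Vegfc, Pgf and Angpt1, while the ligands Vegfb and Angpt2 were lower. Pgf, placental growth factor, was at 3.55, 0.238, 0 and 0 CPM and 9.89-fold higher (4.25 to 28.2), and Angpt1, highest in R6, 3.31-fold higher (2.56 to 4.30). Flt1, the decoy VEGF receptor, had a log2 ratio of 0.83 and was not called.

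The BMP and TGF-beta list had 7 genes higher and 9 lower of 26. Its ligands differed among themselves. Bmp2 and Bmp6, the iron-regulating pair of the sinusoid, were lower in R5, Bmp6 by 4.09-fold (3.70 to 4.53), and Tgfb1 was 4.35-fold lower (3.84 to 4.94). Bmp4 was at 28.1, 0.674, 2.89 and 2.53 CPM and 21.7-fold higher (13.4 to 37.6), and Tgfb2 at 30.5, 2.97, 57.4 and 7.84 CPM and 11.6-fold higher (9.03 to 15). The target genes Id1 and Id2 were higher, Id1 at 334, 43.2, 219 and 68.3 CPM by 2.77-fold (2.59 to 2.96). Id3, at 2250, 916, 416 and 907 CPM, was called higher unadjusted only, with an adjusted log2 ratio of 0.13. The inhibitors Smad6 and Smad7 were 2.31-fold (2.21 to 2.42) and 2.54-fold (2.32 to 2.77) lower.

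On the Wnt list, which holds ligands, R-spondins and modulators, 11 of 22 tested genes were higher in R5 and 1 was lower (median log2 ratio 1.64). Rspo1, another R-spondin, was at 37.8, 0.594, 0.321 and 6.22 CPM and 29.7-fold higher (17.9 to 53.5). Sfrp2, a Wnt-binding protein, was at 37.0, 0.357, 0.379 and 6.03 CPM and 52.3-fold higher (27.3 to 115). Rspo1, Rspo3 and Sfrp2 had their highest level in R5. Wnt4, Wnt5a and Wnt7b were higher in R5 than in R8 and highest in R6, with Wnt4 at 29.8, 10.1, 87.5 and 12.9 CPM. Dkk1, the lower gene, had 1 count in R5 and 23 in R8 and did not reach the background level.

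Coagulation genes had 9 of 21 tested higher and 5 lower. Plat, the plasminogen activator of vessels, was at 107, 4.91, 20.6 and 15.3 CPM and 25.6-fold higher in R5 (21.3 to 31.0). F3, tissue factor, was at 54.5, 1.59, 122 and 14.9 CPM and 19.8-fold higher (14.4 to 28.0). F8, factor VIII, which the sinusoid makes, was at 280, 1129, 10.1 and 803 CPM and 2.95-fold lower (2.85 to 3.05). Vwf and F8, partners in plasma, thus lay on opposite sides. Tfpi, the tissue factor inhibitor, was 2.52-fold lower (2.43 to 2.62), Pros1, protein S, 2.81-fold lower (2.73 to 2.90) and F2r, the thrombin receptor, 3.55-fold lower (3.45 to 3.65).

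Of 24 basement membrane genes, 8 were higher and 4 lower (9 unadjusted). The share of lower calls was near the 18.8% of all coding genes, and that of higher calls was above their 10.7%. Col4a1 and Col4a2, the chains of vascular basement membranes, were lower in R5, Col4a1 at 274, 1265, 158 and 1185 CPM by 3.57-fold (3.45 to 3.69). Nid1 and Lama4 were lower by 2.66-fold (2.53 to 2.78) and 2.21-fold (2.09 to 2.33). Col4a5, Col4a6, Lamb3, Itgb4 and Lamc3, most abundant in R6, were higher in R5 than in R8. Of 14 insulin-like growth factor genes, 9 were higher and 1 lower. Igfbp5 was at 604, 61.5, 5.28 and 85.9 CPM and 11.3-fold higher (10.7 to 12.0). Igfbp7, which sinusoidal cells secrete, was at 3780, 4041, 826 and 3529 CPM and 2.93-fold lower (2.90 to 2.96), a call that only the length adjustment gave.

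Among 19 vascular adhesion genes, 2 were higher (Alcam and Selp) and 4 lower (Podxl, Itgb3, Itga5 and Selplg). Both shares were near those of all coding genes (10.7% higher and 18.8% lower). Itga5, the fibronectin receptor chain, was at 55.6, 206, 100 and 208 CPM and 3.56-fold lower (3.30 to 3.84). Icam1 and Vcam1, the leukocyte adhesion molecules, had log2 ratios of -0.32 and 0.63 and were not called. Of 17 shear and Kruppel-like factor genes, Klf4, Klf5 and Klf13 were higher and Nos3 and Plpp3 lower. These few calls also lay close to the coding-gene shares. Klf2, a sensor of flow, was at 720, 541, 36.5 and 423 CPM and not called (log2 ratio -0.73), and Klf4 was 2.16-fold higher (2.02 to 2.30).

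Class II antigen presentation genes were higher in R5. Of 20 genes on the antigen presentation list, 7 were higher in R5 (11 unadjusted), and 6 of the 7 belong to the class II route. Cd74, the invariant chain, was at 535, 42.7, 804 and 325 CPM and 5.37-fold higher (5.03 to 5.73). H2-Aa was at 94.9, 9.75, 72.4 and 40.4 CPM and 8.36-fold higher (7.29 to 9.61), and H2-Ab1 at 271, 22.3, 240 and 94.9 CPM and 7.10-fold higher (6.5 to 7.77). All 3 had their lowest level in R8. Class I genes H2-K1 and H2-D1 had log2 ratios of 0.31 and 0.13, and B2m, their light chain, one of -0.46, and none was called. Ctss, a protease of class II loading, was the lower gene.

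Chemokine and cytokine genes split 7 higher and 9 lower of 30 (12 and 3 unadjusted), and the sign of their median changed with the scaling. Beside Ccl21a, the higher genes included Cxcl5 at 26.8, 0.753, 20.0 and 4.66 CPM, a neutrophil attractant (16.3-fold, 10.3 to 27.3), Il7 (10.5-fold, 6.90 to 16.7) and Cxcl12 (2.71-fold, 2.40 to 3.05). The lower ones included Cxcl9 at 45.9, 122, 2.51 and 70.4 CPM (3.88-fold, 3.57 to 4.23), Cxcl10 (3.38-fold, 3.18 to 3.61), and Csf1, the macrophage growth factor (3.38-fold, 3.15 to 3.63). Among 25 interferon response genes, 2 were higher and 3 lower, shares near or under those of all coding genes. Of 21 tested complement genes, C1s1, C3, Cfb, C4b, Cfi and Serping1 were higher. The macrophage genes C1qa, C1qb and C1qc were lower with C5ar1 and Masp1. The share of lower calls was not far above the 18.8% of all coding genes, and that of higher calls was above their 10.7%. Unadjusted, 9 complement genes were higher and 2 lower. C3 was at 1097, 105, 2749 and 4080 CPM and 11.1-fold higher (10.7 to 11.6).

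Of 30 proliferation genes, 11 were called lower in R5 and none higher, with a median log2 ratio of -0.83. Without the length adjustment 6 were called lower, and 8 with TMM factors from R5 and R8 alone. Mki67 was at 13.7, 47.0, 22.2 and 47.5 CPM and 2.51-fold lower (2.15 to 2.93), and Top2a at 13.5, 57.5, 20.0 and 75.6 CPM and 3.15-fold lower (2.71 to 3.68). Cdk1, at 17.1, 20.7, 6.30 and 32.4 CPM, and Pcna, at 73.4, 49.9, 40.6 and 52.4 CPM, were not called. The mitotic kinases Aurka, Aurkb and Plk1 were 4.01-fold (3.03 to 5.37), 4.08-fold (3.17 to 5.33) and 3.57-fold (2.79 to 4.59) lower. Immature neutrophil genes moved in the same direction, and their part in these counts was not tested.

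Several groups of short transcripts were called higher in R5 only while the length trend was in place. Oxidative phosphorylation genes had an unadjusted median log2 ratio of 1.25, with 16 of 26 called higher. After adjustment the median was 0.0013, and none was called in either direction. Mitochondrially encoded genes went from 10 of 15 higher to none, with mt-Nd3 lower, and the 32 ribosomal protein genes from 9 higher to 2 higher (Rps19 and Rpl18) and 2 lower (Rpl38 and Rps29). Of 28 long genes of chromatin and cytoskeleton, 1 was called after adjustment. The sign of the adjusted median of each of these 4 lists depended on the scaling or on the genes the trend was fitted to.

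**Figure D5:**
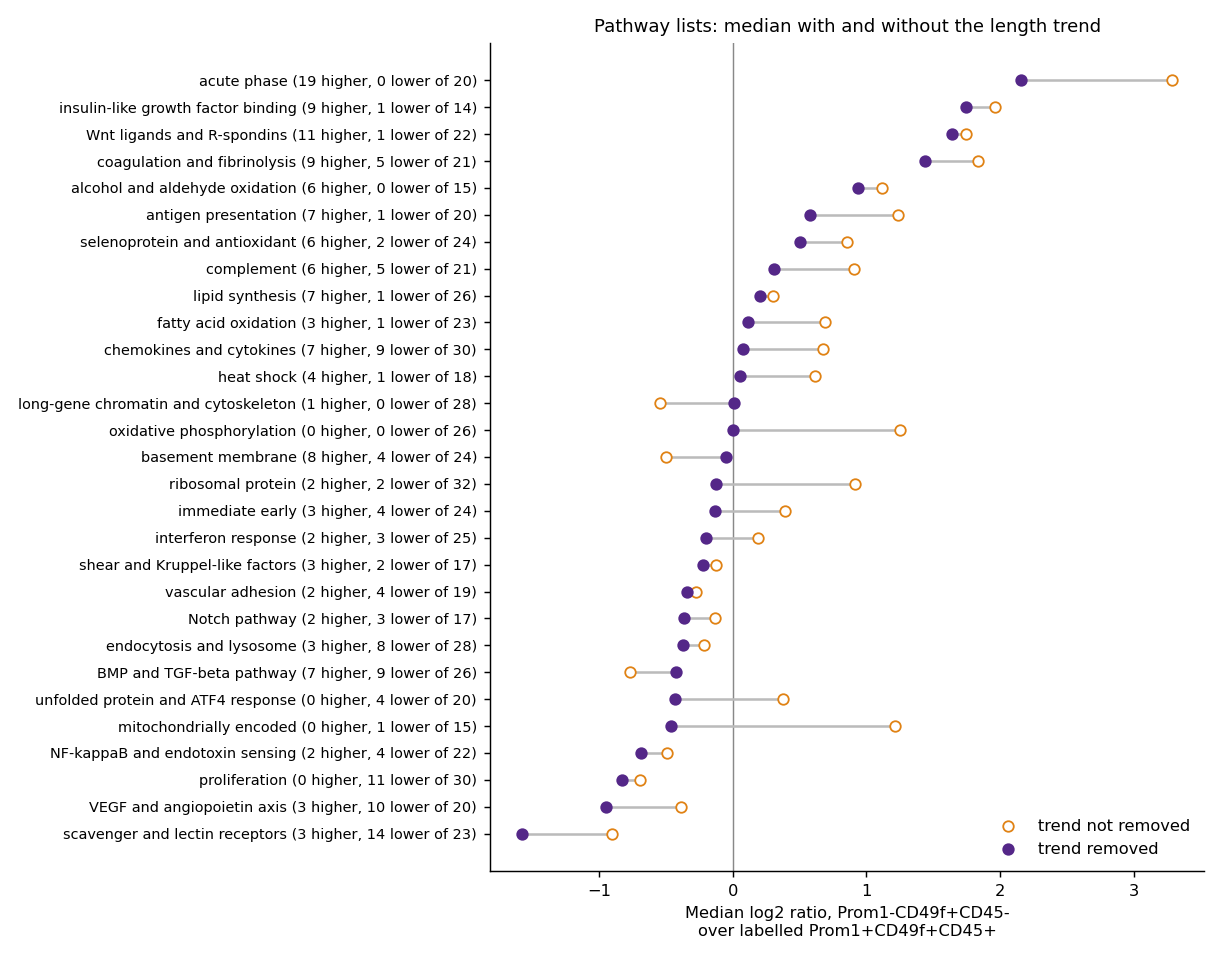
Median log2 ratio of R5 to R8 for 29 pathway lists, before (open circles) and after (filled circles) removing the length trend, with the calls after removal in brackets. Oxidative phosphorylation moves from 1.25 to 0.0013, and scavenger and lectin receptors from -0.90 to -1.57.

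Of 24 immediate early genes, 3 were higher (7 unadjusted) and 4 lower (1 unadjusted). After adjustment, both shares were near those of all coding genes (10.7% higher and 18.8% lower). Jund, Rhob, Myc and Socs3 were the lower genes, and Fos and Egr1 had log2 ratios of -0.11 and -0.02. Small heat shock proteins Cryab, Hspb1 and Hspb8 were higher with Dnaja1, Hspb1 at 198, 12.4, 76.7 and 66.8 CPM by 5.40-fold (4.81 to 6.09), while Hspa8 and Hsp90ab1 both had log2 ratios of 0.06. The unfolded protein list had 0 higher and 4 lower of 20, with a median log2 ratio of -0.43. Its share of lower calls was near the 18.8% of all coding genes. Unadjusted, the list had 4 higher and 3 lower, with a median of 0.38. Of 15 alcohol and aldehyde oxidation genes, 6 were higher and none lower, with Adh1, mostly hepatocytic, at 216, 27.7, 40.6 and 1154 CPM and 4.03-fold higher (3.71 to 4.38). Aldh2 was at 266, 291, 197 and 639 CPM and not called. Selenop, the selenium carrier and the gene with most counts in R8, was at 3409, 8994, 1168 and 8684 CPM and 4.07-fold lower in R5 (4.03 to 4.11).

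Platelet and erythroid genes were few. Of 14 tested platelet genes 4 were higher (8 unadjusted), among them Ppbp at 9.55, 0.436, 0.321 and 1.30 CPM (7.58-fold, 4.11 to 15.5), and 3 lower, Clec1b, Alox12 and Itgb3, which endothelium also expresses. Of 9 tested erythroid genes 2 were higher, the carbonic anhydrases Car1 and Car2, and 2 lower. On both lists the share of lower calls was near the 18.8% of all coding genes. That of higher calls was above their 10.7%, on few genes. The globins Hba-a1, Hba-a2 and Hbb-bs were at 2.23 CPM or less in R5 and R8 and between 39.0 and 92.0 CPM in the presorted cells, and reads may be split among these near-identical genes.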

How the data were processed

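RNA-seq was made from 4 liver cell populations, 1 library each, from RNA of 2 mice pooled before library construction. Per the labels' protocols, polyA RNA was selected and taken through a stranded kit, with more PCR cycles for low inputs. The authors deposited estimated counts per gene, not all whole, and values that per the file headers and numbers are CPM with 1 added. Per the submitters' processing notes, the tools were TopHat2 and Partek (version 3) on mm10; the notes give them no roles, and the annotation and counting settings are not stated.

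After rounding the estimated counts, all 4 libraries were TMM-scaled together (edgeR 4.0.16 under R 4.3.3). Summed counts were 14670300 (R5), 23070004 (R8), 30239541 (R6) and 52294013 (presorted). Genes with at least 10 counts in R5 or R8 were compared. Each ratio has an exact binomial 95% interval for counting error only, since PCR copies are not independent molecules and no animal replicates exist; no p-value is given. The ratio was divided by a robust loess (span 0.3) on exonic length, fitted to protein-coding genes with at least 50 counts in both libraries; the code was also tested on simulated data. Names matched GENCODE vM21 for 40254 of 41128 genes, and 248 compared genes without a length were not called. Against 0 counts, folds use a floor of 3 counts (0.209 CPM in R5 and 0.119 in R8). Without a stated strand setting, antisense genes and near-identical families (globins, Saa, Ccl21, H2, Serpina1) are uncertain.

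Named genes were the sorted proteins, the 5 markers, the 15 highest and 15 lowest protein-coding genes by the interval bound nearest 1 (at least 100 counts and above background), members of endothelial lists, abundant or direction-splitting members of other lists, the genes with most counts, and abundant genes whose call changed on trend removal. The members and lists were chosen with earlier results of these data known. Alternatives covered scaling (DESeq2 1.42.0 size factors, library totals, TMM over 2 libraries), filters, length definition, GC content, background and the deposited CPM values.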

Additional observations from a re-analysis of the deposited data

How the results depend on the processing

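No paired analysis was possible because each population was a single library. Over all genes with a length, 1750 were called higher in R5 and 5349 lower. Without removing the length trend, 2780 of all compared genes and 2765 of those with a length were higher, and Spearman's rho with length was -0.51. With at least 50 counts in either library 2797 were lower. Restricting to protein-coding genes, an alternative chosen after seeing the data, left 3014 lower. Keeping in addition only genes above background whose R8 level was at most 4 times the presorted level, also chosen after seeing the data, left 1734 lower. Pan-endothelial genes called lower numbered 7 rather than 11 when GC content was removed as well as length. Of the other values, 125 main counts stayed within 1.5 times the reported count. Some of these were fixed beforehand, since filters on counts, background or coding class cannot change calls of abundant coding genes. Among the remaining list counts and single-gene ratios, 1279 stayed within 1.5 times (counts) or within their interval (ratios) and 193 moved beyond it. The single genes were only the sorted proteins, the markers and the genes with the highest and lowest ratios by interval bound. No called ratio among them changed direction. For the highest and lowest genes the scaling alternatives could not have shown a reversal. Their nearest bounds lay between 3.56 (Chil3) and 6.69 (Ahnak2) log2 units from equality, far beyond the shifts from scaling given below. Dendritic cell genes called lower numbered 4 rather than 7 under the last restriction above, erythroid genes 5 rather than 2 with the deposited normalized values, and unfolded protein genes 7 rather than 4 with library totals. The median log2 ratio of coding genes was -0.38 as reported, -0.15 with TMM over the 2 libraries, -0.18 with DESeq2 size factors and -0.54 with library totals, so every fold shifts with that choice. The sign of the list median depended on scaling, the trend fit or use of the deposited normalized values for the platelet, Kruppel-like factor, basement membrane, immediate early, interferon, heat shock, chemokine, fatty acid oxidation, oxidative phosphorylation, mitochondrially encoded, ribosomal protein and long-gene lists. Depth limits the low genes: 3 counts equal 0.209 CPM in R5 and 0.119 CPM in R8, and differences below those levels could not be seen.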

Other observations

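A few abundant genes stood apart in single libraries and belong to none of the lists above as a group; they were chosen after their values were seen. Rpl35a, a ribosomal protein gene, was at 5865, 176, 225 and 193 CPM in R5, R8, R6 and presorted cells, 26.7-fold higher in R5 than in R8 (25.9 to 27.5). The 32 other ribosomal protein genes examined gave no comparable value, with a highest log2 ratio of 1.21 (Rps19). Lars2, the mitochondrial leucyl-tRNA synthetase, was at 10472, 2253, 2252 and 3021 CPM and 6.47-fold higher (6.41 to 6.54). Rsad1 was at 300, 4.91, 15.3 and 4.43 CPM and 59.2-fold higher (49.5 to 71.4), and Stmn2, a tubulin-binding protein, at 39.3, 0.515, 0.146 and 0.812 CPM and 84.5-fold higher (49.0 to 160).

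The unnamed gene models Gm26870 and Gm10800 together held 2.80% of the counts in R5, 0.597% in R8, 1.09% in R6 and 0.00686% in the presorted library. All 3 sorted libraries thus had a larger share than the cells they came from.

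Across the 1712 coding genes called higher in R5, the highest of the 4 libraries was R5 for 600, R6 for 803 and the presorted cells for 309. Genes led by R6 include the duct genes given above, and those led by R5 include Vwf, Gja5, Rspo3, Ccl21a and Msln.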
